A study of Mus musculus with 6 samples.

Results

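The genes described here are 42 cell cycle genes, the transcripts by which dividing cells are usually recognised in a tissue. They were taken by symbol from a list of known cell cycle genes, out of 21900 genes in the deposited table. The rule uses no measured value, but the members were chosen with earlier results of these data known. All 42 were found and passed the filter of a mean of at least 0.5 CPM (assigned reads scaled to the same total in each library). Of them, 17 act in entry into S phase and DNA replication and are called replication genes, and 25 act in G2 phase and mitosis and are called mitotic genes. Lung RNA was sequenced from 6 mice, 3 with the genotype label Wild Type and 3 with the label Cyp1b1 KO, a knockout of a cytochrome P450 enzyme. All 6 had been on a high fat diet over 10 weeks, so no library shows the lung without that diet. Each label holds 2 females, here called 1 and 2, and 1 male, here called 3; these numbers name libraries and pair none. The sources used here do not give age, strain or the design of the knockout allele, and no label says in words that each library is a separate animal, so that p-values speak only of the spread among the 6 libraries.

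Cyp1b1 itself (ENSMUSG00000024087) was higher in the libraries labelled knockout, at 51.9 ± 3.92 CPM (SD, n = 3) against 16.7 ± 3.64 CPM (SD, n = 3). The labels are therefore written as labels throughout, and each direction between genotypes rests on them. Depth read from the step between low values was 20.2 M to 27.6 M assigned reads per library, so that 3 reads stood for 0.109 to 0.148 CPM. The tissue label was matched by the surfactant gene Sftpc, at 7541 to 12270 CPM, and the alveolar type 1 cell gene Ager, at 1099 to 1669 CPM. The male labelled wild type was the highest library for 41 of the 42 members, against 25.7% of all genes tested. The comparison of the labels is therefore given below with and without the males.

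A cell that leaves rest first loads the MCM helicase onto replication origins and makes cyclin E, which drives S phase. The helicase is started by CDC45 and the GINS complex, the sliding clamp PCNA holds the polymerases on DNA, and ribonucleotide reductase, thymidylate synthase and thymidine kinase supply the nucleotides. Cyclin A and cyclin B with CDK1 then drive mitosis, in which kinesins, centromere proteins and the Aurora and Polo kinases build the spindle, until the anaphase-promoting complex degrades the cyclins. Transcription of the replication group is classically driven by E2F factors, and that of the mitotic group by B-MYB, FOXM1 and the MuvB complex, which binds a promoter element called CHR (cell cycle genes homology region) and works with NF-Y, the factor of the CCAAT box. In the adult lung few cells divide, among them alveolar type 2, endothelial and immune cells.

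The 2 groups differed in promoter sequence, which the choice of genes did not use. RefSeq promoter windows (GRCm38.p6, the build of mm10, 250 bases before to 50 after each start) were at hand for 34 of the 42 genes. They were searched on both strands for the CHR letters TTTGAA, for CCAAT, and for TTNNCGC with each N a C or G, as the E2F motif. The TTGG of an E2F match can also belong to a CCAAT match, and each was counted. The CHR letters stood in the window of 15 of 20 mitotic genes (75%), 2 of 14 replication genes (14.3%) and 15.0% of 12242 genes that were tested for expression and have a window. CCAAT stood in 18 of 20 (90%), 9 of 14 (64.3%) and 42.1%. The E2F letters ran the other way, with 3 of 20 mitotic genes (15%), 7 of 14 replication genes (50%) and 18.0% of genes tested. Ccna2, Aurkb, Kif20a, Tpx2, Foxm1, Ccne2, Mcm4 and Gins2 had no window.

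**Figure D1:**
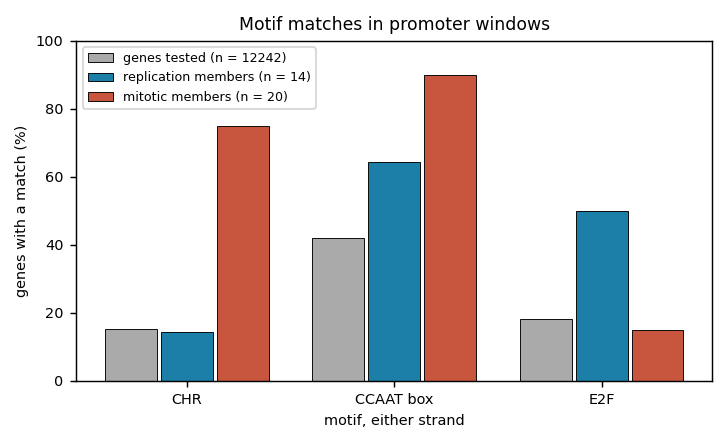
Share of genes (vertical axis, %) whose RefSeq promoter window holds each motif on either strand (horizontal axis), for genes tested, replication genes and mitotic genes. CHR letters stood in 75% of mitotic genes and 14.3% of replication genes, E2F letters in 15% and 50%.

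The sequences shown are the bases just before the start site of 6 mitotic genes and 4 replication genes. Pcna is among them because a test below returns to it. All 6 mitotic genes shown hold CHR letters before the start, so they do not stand for the whole group. Capitals mark CHR, CCAAT and E2F letters on either strand (TTCAAA and ATTGG are CHR and CCAAT read from the other strand), and each line is written 5′ to 3′ on the strand of the gene. The mitotic genes are Mki67 (chr7:135716380-135716579, minus strand), Top2a (chr11:99024190-99024289, minus strand), Cdk1 (chr10:69352913-69353012, minus strand), Cdc20 (chr4:118437344-118437443, minus strand), Kif11 (chr19:37376282-37376381, plus strand) and Ube2c (chr2:164769829-164769928, plus strand).

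Mki67: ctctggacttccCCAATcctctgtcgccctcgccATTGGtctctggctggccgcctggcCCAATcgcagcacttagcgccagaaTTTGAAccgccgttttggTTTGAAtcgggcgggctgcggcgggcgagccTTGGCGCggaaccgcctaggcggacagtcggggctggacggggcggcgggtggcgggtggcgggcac
Top2a: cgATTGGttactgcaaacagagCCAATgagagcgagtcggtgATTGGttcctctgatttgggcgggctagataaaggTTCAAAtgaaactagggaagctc
Cdk1: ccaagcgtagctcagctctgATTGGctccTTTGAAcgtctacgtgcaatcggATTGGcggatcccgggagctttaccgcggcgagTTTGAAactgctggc
Cdc20: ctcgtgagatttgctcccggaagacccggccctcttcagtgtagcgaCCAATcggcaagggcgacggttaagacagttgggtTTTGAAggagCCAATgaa
Kif11: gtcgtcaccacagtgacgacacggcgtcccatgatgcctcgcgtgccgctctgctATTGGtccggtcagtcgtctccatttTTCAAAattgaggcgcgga
Ube2c: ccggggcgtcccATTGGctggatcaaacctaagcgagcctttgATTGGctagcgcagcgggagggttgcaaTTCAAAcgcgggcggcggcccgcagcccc

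In Top2a, Cdk1, Cdc20, Kif11 and Ube2c a CHR match began between 15 and 29 bases before the start, with 1 to 3 CCAAT matches in the 100 bases shown. In Mki67 a pair of CHR matches lay farther out, at 116 and 98 bases before the start, behind 3 CCAAT matches. Other mitotic genes differed from this layout. In Cdca3, Cdca8, Plk1, Aurka, Bub1b, Cenpf, Kif23 and Ttk the CHR letters stood only after the start. In Ccnb1, Bub1, Birc5, Cenpe and Nusap1 the window held none. The replication genes are Mcm6 (chr1:128359706-128359825, minus strand), Rrm1 (chr7:102441595-102441694, plus strand), Rrm2 (chr12:24708154-24708253, plus strand) and Pcna (chr2:132253181-132253280, minus strand).

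Mcm6: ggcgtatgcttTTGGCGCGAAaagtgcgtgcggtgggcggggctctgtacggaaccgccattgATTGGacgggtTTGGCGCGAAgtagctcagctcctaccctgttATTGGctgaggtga
Rrm1: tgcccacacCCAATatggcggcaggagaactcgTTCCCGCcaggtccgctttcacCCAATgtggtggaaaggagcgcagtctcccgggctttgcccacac
Rrm2: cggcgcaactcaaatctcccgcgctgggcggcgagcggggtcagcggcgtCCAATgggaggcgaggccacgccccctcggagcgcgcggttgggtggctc
Pcna: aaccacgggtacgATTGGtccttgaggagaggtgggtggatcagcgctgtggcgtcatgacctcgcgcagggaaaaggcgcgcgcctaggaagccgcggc

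Mcm6 held 2 longer runs in which a pair of E2F matches on opposite strands overlap, and Rrm1 held 1 E2F match between its 2 CCAAT matches. Rrm2 and Pcna showed a CCAAT match alone in the stretch printed. None of these 4 stretches held the CHR letters. The replication genes with CHR letters in the window, Mcm2 and Cdc45, are not shown. A match describes the letters in the window and is no evidence of binding.

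Replication genes were the more abundant of the 2 groups. Levels between genes are compared as CPM per kilobase of annotated exon (GENCODE M21), as a mean over the 6 libraries. Pcna was highest, at 17.9 ± 4.06 CPM per kb (SD, n = 6), followed by Mcm4 (7.55 ± 1.45), Mcm6 (6.37 ± 1.20), Mcm3 (5.69 ± 0.967) and Mcm7 (5.04 ± 0.694). The first mitotic genes in this order were Cdc20 (2.73 ± 1.58) in place 9 and Mki67 (2.69 ± 1.95) in place 10. Lowest were Cdc6 (0.222 ± 0.103) and Ttk (0.119 ± 0.0682). The median gene lay at 2.65 CPM per kb among replication genes and 0.920 CPM per kb among mitotic genes. Of the 41 pairs of neighbours in this order, Pcna and Mcm4 were the only pair whose ranges over the 6 libraries did not meet. The rarest transcripts rested on few reads: the lowest library had an estimated 3 reads of Ccne1, 5 of Ttk and 9 of Cdc6.

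Summed over the group, the 17 replication genes reached 259 and 232 CPM in females of the label wild type and 259 and 246 CPM in females of the label knockout, with 341 CPM in the first label's male and 196 CPM in the second's. The 25 mitotic genes summed to 100 and 84.8 CPM, 111 and 79.4 CPM, 300.4 CPM and 115 CPM in the same order. The male labelled wild type was the highest library for both groups, and for the mitotic genes it lay far above the other 5, which overlapped. Mki67 and Top2a together gave 103 of its 300.4 CPM. As a share of the replication sum, the mitotic sum was between 32.3% and 42.8% in the 4 females, 58.7% in the male labelled knockout and 88.2% in the male labelled wild type. In bulk RNA of this kind, fewer dividing cells and less of each transcript per dividing cell cannot be told apart.

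**Figure D2:**
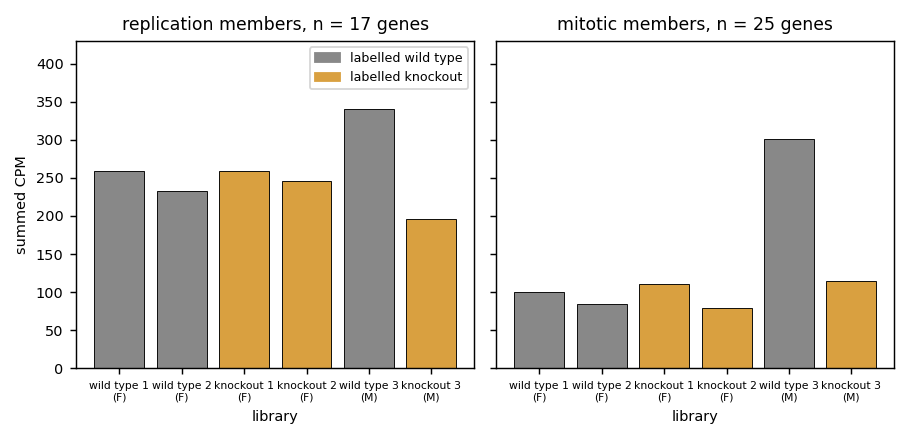
Summed CPM (vertical axis, from 0) of the replication genes and the mitotic genes in each library (horizontal axis; F female, M male; grey labelled wild type, orange labelled knockout). The male labelled wild type reached 341 and 300.4 CPM, while the females lay between 232 and 259 CPM and between 79.4 and 111 CPM.

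Among the replication genes, those of the MCM helicase were nearly level. Libraries 1, 2 and 3 with the label wild type had 17.5, 13.0 and 19.0 CPM of Mcm2, and those with the label knockout had 16.7, 15.7 and 12.4 CPM. Values below keep this order of libraries. For Mcm6 they were 32.2, 29.9 and 37.7 CPM, then 29.8, 28.4 and 20.5 CPM, without overlap of the labels. Mcm7 was at 24.4, 21.8, 24.9, 25.3, 19.4 and 18.0 CPM, with labelled knockout 1 as its highest library, the one member for which the male labelled wild type was not the highest. Mcm3 and Mcm4, between 15.5 and 35.8 CPM, followed the same order of males. Mcm5 departed from the other subunits: it was at 18.5 CPM in the male labelled wild type and between 7.45 and 10.4 CPM in the other 5 libraries. Across the 6 MCM genes the male labelled wild type was 1.08-fold (Mcm7) to 2.14-fold (Mcm5) above the mean of the females of its label.

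The factors that load and start the helicase were lowest in the male labelled knockout. Cdc6, the loader of the MCM ring, was at 1.30, 1.53 and 1.88 CPM in the libraries labelled wild type and 1.12, 0.798 and 0.351 CPM in those labelled knockout, so that the labels did not overlap. Gins2, a subunit of the GINS complex, was at 21.3, 15.2 and 24.0 against 15.9, 18.1 and 8.81 CPM. Cdc45 was nearly flat, between 2.57 and 3.54 CPM. Gins2 shares exon positions with Gse1 and Cdc45 with Ufd1, each on the opposite strand. The same holds for Mcm7 with Cops6 and Ap4m1, Tk1 with Afmid, Ccne2 with Ints8, Ccna2 with Exosc9 and Cdc20 with Elovl1. It also holds for Kif20a with Cdc23, Nusap1 with Oip5, Cdca8 with 9930104L06Rik, Plk1 with Gm44985 and Ube2c with Tnnc2. Top2a, Foxm1 and Mcm7 share exon positions with other annotated genes on their own strand. Use of strand in counting is not given, so reads at any of these positions cannot be told apart.

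The genes of nucleotide supply fell into a level and an uneven pair. Rrm1, the large subunit of ribonucleotide reductase, was between 27.9 and 37.5 CPM in all 6 libraries. Rrm2, the small subunit, which cells make in S phase and destroy afterwards, was at 3.48, 3.36 and 13.1 CPM in the libraries labelled wild type and 3.14, 3.12 and 4.68 CPM in those labelled knockout. Its value in the male labelled wild type was 2.79 times that of the next library. Thymidine kinase Tk1 was at 2.76, 4.995 and 11.4 against 6.94, 5.51 and 3.27 CPM, with the male of each label at the opposite end of its label. Thymidylate synthase Tyms was at 7.51 CPM in the male labelled wild type and between 4.06 and 5.06 CPM elsewhere. Pcna was at 43.2, 38.5 and 57.8 CPM in the libraries labelled wild type and 41.98, 47.7 and 28.5 CPM in those labelled knockout, so that the 4 females lay between the males.

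Of the regulators of S phase entry, the transcription factor E2f1 was at 12.5, 11.8 and 15.1 CPM in the libraries labelled wild type and 9.99, 11.3 and 10.95 CPM in those labelled knockout, without overlap of the labels. The cyclin E genes were low. Ccne1 was at 0.963, 0.396 and 3.29 against 1.52, 0.109 and 0.741 CPM, and Ccne2 was between 2.22 and 4.72 CPM. Ccne1 varied 14.0-fold among the 4 females, the widest of all members, at 3 to 34 reads.

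Mitotic genes were higher in the male labelled wild type than in every other library, for each of the 25. Mki67, the Ki-67 protein that coats mitotic chromosomes, was at 17.6, 12.6 and 64.8 CPM in the libraries labelled wild type and 21.01, 15.2 and 30.9 CPM in those labelled knockout. Top2a, the topoisomerase that untangles sister DNA, was at 10.5, 9.64 and 38.3 against 14.8, 6.67 and 12.7 CPM. For Mki67 both males lay above all 4 females, while for Top2a the male labelled knockout lay among them.

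Most cyclins and kinases of mitotic entry were high in the male labelled wild type alone. Ccna2 was at 5.36, 5.24 and 16.1 CPM in the libraries labelled wild type and 7.03, 5.05 and 6.21 CPM in those labelled knockout. Cdk1, the kinase that both cyclins drive, was at 3.01, 1.63 and 8.196 against 2.11, 2.61 and 2.11 CPM. Ccnb1 reached 5.36 CPM in the male of the label wild type, against 0.798 to 2.13 CPM elsewhere, and Ccnb2 reached 6.70 against 1.38 to 3.27 CPM. The male labelled knockout was the next highest library for both cyclin B genes. Their pseudogenes Ccnb1-ps, at 0.0001 to 1.47 CPM, and Ccnb2-ps, at 2.32 to 4.14 CPM, can share reads with them. Ccnb1-ps too was highest in the male labelled wild type. The Aurora kinases Aurka, of the spindle poles, and Aurkb, of the chromosomal passenger complex, were at 5.29 and 6.79 CPM in that male, with 1.29 to 2.47 CPM and 1.34 to 1.88 CPM in the others. Aurkb showed the widest gap of all members to the next library, 3.60-fold. The Polo kinase Plk1 had the narrowest gap in this class, 1.34-fold, with 5.93 CPM in the male labelled wild type and 4.42 CPM in labelled knockout 2, a female. Foxm1, a transcription factor of the mitotic programme, was at 5.48, 4.35 and 12.1 against 3.99, 3.34 and 4.41 CPM.

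Spindle and kinetochore genes were also highest in the male labelled wild type, while the order of the other libraries varied. Kif11, the kinesin that pushes spindle poles apart, was at 4.10, 4.15 and 12.0 CPM in the libraries labelled wild type and 4.97, 3.23 and 2.88 CPM in those labelled knockout. The cytokinesis kinesins Kif23 and Kif20a were at 12.6 and 6.70 CPM in the male of the label wild type, with 4.52 to 7.75 CPM and 2.09 to 3.36 CPM in the other libraries. Cenpf, a kinetochore protein, was at 3.77, 3.36 and 14.6 against 6.18, 2.83 and 3.47 CPM. Cenpe, a kinetochore kinesin, and Nusap1, a microtubule bundler, differed in that both males lay above the 4 females: 8.92 and 4.41 CPM against 1.70 to 2.60 CPM for Cenpe, and 9.86 and 5.15 against 1.83 to 3.63 CPM for Nusap1. Tpx2, which activates Aurora A at the spindle, was at 5.48, 3.96 and 11.4 CPM against 4.39, 2.28 and 2.81 CPM.

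Passenger, checkpoint and exit genes held both the widest and the narrowest differences. Cdca8 (borealin), a partner of Aurora B, was at 0.921, 0.989 and 5.38 against 1.48, 1.20 and 2.96 CPM, and its partner Birc5 (survivin) at 2.01, 2.97 and 7.04 against 2.73, 1.99 and 2.88 CPM. The checkpoint kinase Bub1 was at 3.10, 2.37 and 4.14 CPM against 2.06, 2.28 and 0.858 CPM, one of 2 mitotic genes lowest in the male labelled knockout. Bub1b reached 12.3 CPM in the male of the label wild type, against 2.79 to 4.75 CPM elsewhere, and Ttk 1.15 against 0.181 to 0.717 CPM. Ube2c, the ubiquitin-conjugating enzyme of the anaphase-promoting complex, was at 2.97, 2.77 and 9.14 against 2.11, 1.41 and 5.26 CPM, with both males above all females. Cdc20, an activator of that complex, was at 10.8 CPM in the male of the label wild type, against 2.68 to 5.29 CPM. Cdca3 was at 2.68, 3.07 and 4.70 CPM against 1.25, 1.67 and 2.46 CPM, without overlap of the labels.

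**Figure D3:**
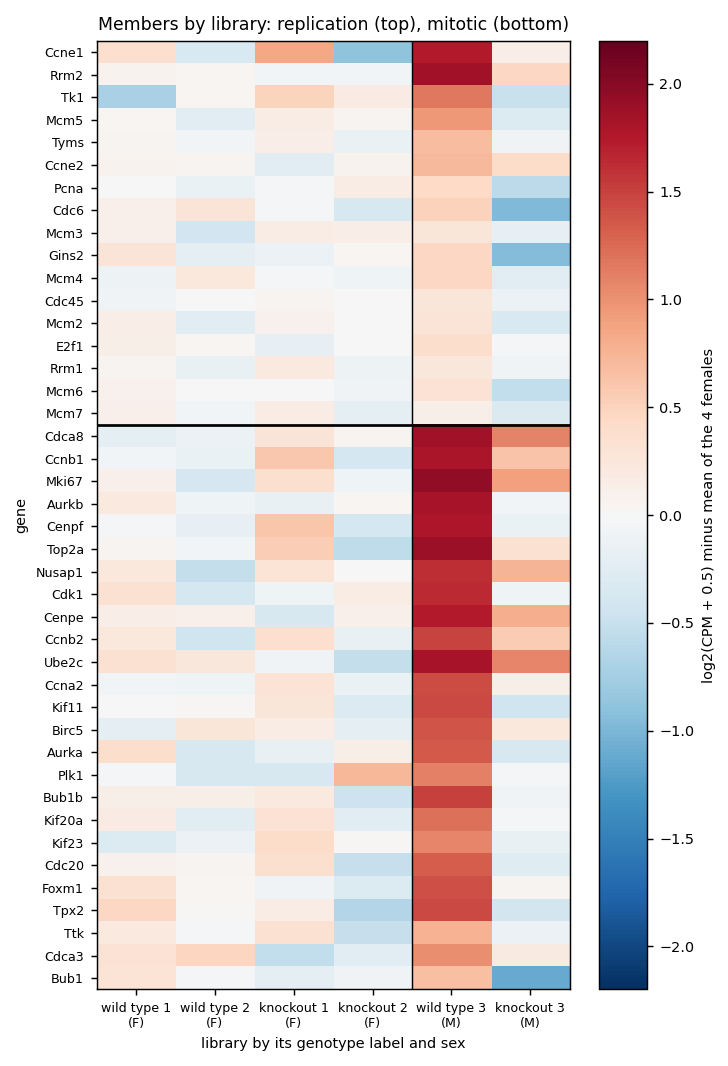
Each row is a member and each column a library (F female, M male); colour is log2(CPM + 0.5) minus the mean of the 4 females, red higher and blue lower. The column of the male labelled wild type is red in every mitotic row and pale in most replication rows.

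Between the genotype labels no member passed the test. limma was fitted to log2(CPM + 0.5) with terms for the label and for sex. With adjustment over all 17382 genes tested it called 0 of 42 members (smallest adjusted p = 0.775), where it called 0.0115% of all genes tested. The fitted difference, labelled knockout minus labelled wild type, was below 0 for 16 of 17 replication genes and 25 of 25 mitotic genes. Its median was -0.25 and -0.50, against -0.06 over all genes tested. After median centring of the libraries, which moved the median of all genes from -0.06 to 0.05, these medians were -0.15 and -0.39, with 14 of 17 and 23 of 25 genes below 0. Mitotic genes with an unadjusted p under 0.05 were Cdca3 (-0.80, SE 0.27), Tpx2 (-0.94, SE 0.37), Foxm1 (-0.71, SE 0.29) and Ube2c (-0.64, SE 0.26), each with a limma adjusted p of 0.775. These 4 of 42 members compare with 3.33% of all genes lower at that level. The labels did not overlap, with the label knockout lower, for Mcm6, Cdc6, E2f1, Bub1 and Cdca3, 5 of 42 members against 5.89% of genes tested. An exact permutation test (two-sided, taking no account of sex) of 3 against 3 libraries allows no p-value under 0.1. Every gene whose labels do not overlap reaches that value, so for these 5 the test adds nothing.

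Among the females alone the members went both ways between the labels, with medians near 0 in both groups of genes. In the 4 females alone, the median log2 difference was -0.04 over the 17 replication genes and -0.02 over 24 mitotic genes, with Ttk under the filter there. Of these, 8 of 17 and 11 of 24 lay above 0. The ratio of the female means had a median of 1.01 for replication genes and 0.993 for mitotic genes. Single members had ratios, knockout label over wild type label, from 0.509 (Cdca3) to 1.61 (Tk1). Plk1 (1.47), Cdca8 (1.40), Kif23 (1.40) and Ccnb1 (1.31) were on the high side, and Ube2c (0.613) on the low side, with Mki67 at 1.20 and Top2a at 1.07. limma called 0 of these 41 members there (smallest adjusted p = 0.9999), with 1 at an unadjusted p under 0.05.

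Within the label wild type, the male was above both females for each of the 42 members, by a larger ratio in mitotic genes than in replication genes. It was the highest of the 6 libraries for 16 of 17 replication genes and 25 of 25 mitotic genes, against 25.7% of all genes tested. After median centring this was 14 of 17 and 25 of 25, against 17.4%. It was at least 2-fold above the mean of the females of its label for 4 of 17 replication genes (Ccne1, Rrm2, Tk1 and Mcm5) and 23 of 25 mitotic genes, against 7.71% of genes tested. The ratio had a median of 1.32 (range 1.08 to 4.84) in the replication group and 2.89 (range 1.51 to 5.63) in the mitotic group. The highest were Cdca8 (5.63), Ccnb1 (4.97), Ccne1 (4.84), Mki67 (4.30), Aurkb (4.09) and Cenpf (4.08). The 2 mitotic genes under 2-fold were Bub1 (1.51) and Cdca3 (1.63). Among mitotic genes with a promoter window, the median ratio was 2.89 for the 15 with CHR letters and 3.49 for the 5 without. With 1 male per label this sets 1 library against 2 and carries no test.

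Within the label knockout, the ratio of the male to the mean of its females had a median of 0.806 for replication genes and lay close to equality for mitotic genes. The male was below both females of its label for 11 of 17 replication genes and 5 of 25 mitotic genes, against 52.1% of all genes tested. After median centring this was 8 of 17 and 2 of 25, against 37.0%. The share of replication genes is near that of all genes. The male was above both females for 10 of 25 mitotic genes and 2 of 17 replication genes, and for 11 and 3 after median centring. The share of all genes in that direction was not counted, so these counts have nothing to be set against. The male was at least 2-fold above the mean of its females for Ube2c (2.99), Cdca8 (2.22) and Cenpe (2.08). These are 3 of 25 mitotic genes and 0 of 17 replication genes, against 4.71% of genes tested. Mki67 followed at 1.71 and Cdca3 at 1.68. The lowest ratios were those of Cdc6 (0.366), Bub1 (0.395), Gins2 (0.518) and Tk1 (0.526).

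**Figure D4:**
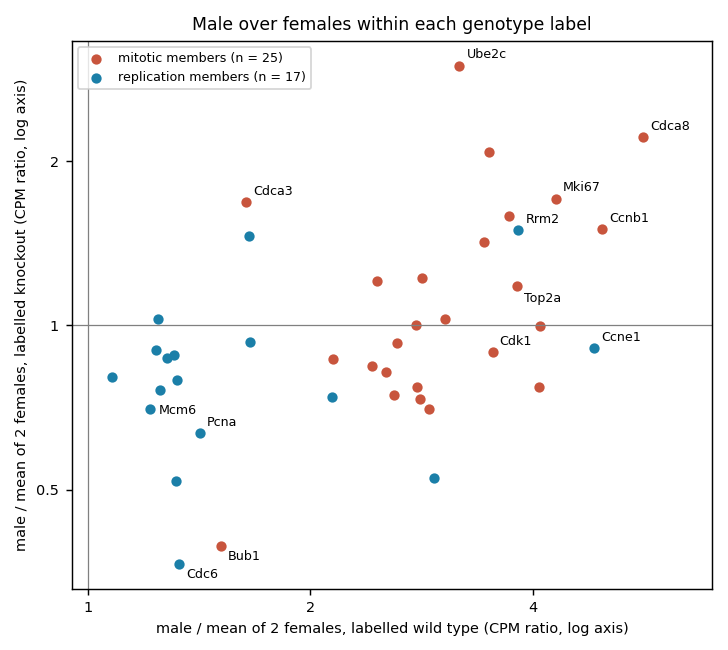
For each member, the CPM of the male over the mean CPM of the 2 females of the same label, for the label wild type (horizontal, log axis) and the label knockout (vertical, log axis); grey lines mark equal levels. Mitotic genes lie to the right, with a median of 2.89 on the horizontal axis, and replication genes further left and lower, with medians of 1.32 and 0.806.

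Tested over both labels, no member passed as different between the sexes. limma's sex term (2 males against 4 females) called 0 of 42 members, against 0.627% of all genes called higher in males. Of the 25 mitotic genes 24 lay higher in males, with a median log2 difference of 0.77, and of the 17 replication genes 11, with a median of 0.08; over all genes tested it was -0.05. The smallest p-values were those of Ube2c (1.44, SE 0.28, limma adjusted p = 0.0618) and Mki67 (1.43, SE 0.30, limma adjusted p = 0.084). Both passed after median centring (limma adjusted p = 0.049 and 0.0497). Centring also raised the number of all genes called higher in males, from 109 to 154. Without the male labelled knockout, which leaves the male labelled wild type as the only male, Mki67, Rrm2, Ccna2, Cdca8 and Top2a passed, with log2 differences between 1.52 and 2.09 and limma adjusted p between 0.00507 and 0.0382. There 3.51% of all genes tested were called higher, and the fit sets 1 male against a spread that comes from the females alone. Without the male labelled wild type no member passed.

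The interaction term asks whether the genotype difference in males departs from that in females, and compares 1 male per label against the spread of the females. It called 1 of 42 members, Pcna, against 1.84% of all genes called in the lower direction. That count is near the share of all genes and does not set the members apart. Pcna (ENSMUSG00000027342, mm10 chromosome 2) had an interaction of -1.14 (SE 0.24, limma adjusted p = 0.0482): labelled knockout over labelled wild type was 28.5 against 57.8 CPM in males, and 41.98 and 47.7 against 43.2 and 38.5 CPM in females. This call lay at the edge of the threshold and ended with a pseudocount of 0.1 CPM, with no filter, under either scaling, and without labelled wild type 2, labelled knockout 1 or labelled knockout 2 (limma adjusted p from 0.0544 to 0.193). Without labelled wild type 2 the one member called was Tk1 (limma adjusted p = 0.0446), and without labelled knockout 2 it was Top2a (limma adjusted p = 0.0383). The pseudogene Pcna-ps2 can share reads with Pcna. Its level too was highest in the male labelled wild type (20.9 CPM) and lowest in the male labelled knockout (12.8 CPM). All 42 members lay below 0, with a median of -0.76 for replication genes and -1.36 for mitotic genes, against -0.13 for all genes tested. After median centring these medians were -0.53, -1.13 and 0.09, with 16 of 17 and 23 of 25 genes below 0. Tk1 (-2.32, SE 0.56) and Cenpf (-2.14, SE 0.63) had the largest values and did not pass (limma adjusted p = 0.0769 and 0.131).

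The members also varied among the females, in which mitotic genes were the less even group. The highest female was a median of 1.30 times the lowest for replication genes and 1.85 times for mitotic genes. Labelled knockout 1 was above labelled knockout 2 for 18 of 25 mitotic genes and 13 of 17 replication genes. Labelled wild type 1 was above labelled wild type 2 for 19 of 25 and 13 of 17. The order of the females was thus much the same in both groups, and the share of all genes with that order was not counted. Plk1 ran against the order in the label knockout, at 4.42 CPM in labelled knockout 2 and 1.83 to 2.43 CPM in the other females.

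Other cell cycle genes were read from lists that do not contain the members. Of 50 other mitotic genes (48 tested) limma called 0 for genotype, 0 for sex and 0 for the interaction. Their median log2 distance from the females was 1.004 in the male labelled wild type and -0.06 in the male labelled knockout, beside 1.45 and -0.03 for the mitotic members. Spag5 and Ncapg2, spindle and condensin genes and the 2 of smallest genotype p in this list, were at 4.57 and 15.6 CPM in the male of the label wild type, against 0.851 to 2.37 and 5.62 to 7.86 CPM elsewhere. CHR letters stood in 30 of 42 promoter windows of the list (71.4%). Of 40 other replication genes (39 tested) limma called 1, for the interaction: Uhrf1, which guides maintenance of DNA methylation, at 5.11, 3.54 and 12.6 CPM in the libraries labelled wild type and 4.88, 3.66 and 1.52 CPM in those labelled knockout (-2.68, SE 0.54, limma adjusted p = 0.0413). Over all genes tested the interaction called 1.84% lower, and 1 of 39 is near that share. The median of the list was 0.38 in the male labelled wild type and -0.13 in the male labelled knockout, beside 0.45 and -0.24 for the replication members. E2F letters stood in 23 of 33 of its windows (69.7%) and CHR letters in 6 (18.2%).

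In the male labelled wild type, genes of G1 phase and of rest lay closer to the females than the mitotic members did. The 11 G1 cyclins and kinases had a median of 0.23 log2 units in the male labelled wild type and -0.09 in the male labelled knockout, with 0 called in any test; Cdk2, which partners cyclin E, was between 17.6 and 29.4 CPM, and Cdc25a, the phosphatase that frees it, between 10.3 and 17.8 CPM. Among 14 CDK inhibitors, pocket proteins and related genes, Btg1, an antiproliferative gene, was called for the interaction, at 252, 219 and 389 CPM against 250, 239 and 211 CPM (-0.93, SE 0.19, limma adjusted p = 0.0439). Among 15 other E2F, MYB and DREAM genes, Tfdp2, a dimer partner of E2F, was called in the other direction, at 78.9, 92.4 and 69.8 CPM against 71.3, 81.0 and 130 CPM (1.06, SE 0.22, limma adjusted p = 0.0466). Over all 17382 genes tested the interaction called 319 lower and 122 higher, so 1 call in a list of this size does not set the list apart. With no filter on low values the interaction called 0 genes, so the calls of Uhrf1, Btg1 and Tfdp2 ended there.

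Markers of other cell types also stood apart in the 2 male libraries. In the male labelled wild type the median of 10 T cell markers was 1.64 log2 units above the females, that of 10 dendritic cell markers 1.26, of 10 monocyte and macrophage markers 1.25, of 10 erythroid markers 1.32, of 9 plasma cell markers 0.99 and of 8 NK cell markers 0.95, while 11 B cell markers were at 0.32 and 7 germinal centre markers at 0.18. Summed T cell markers were at 210 CPM there and between 49.1 and 70.3 CPM in the other 5 libraries. Lck was at 40.8 against 7.22 to 14.7 CPM and Cd4 at 42.2 against 3.31 to 7.57 CPM. That male was highest, as for the mitotic sum, in summed dendritic (8415 against 1140 to 2804 CPM) and plasma cell markers (1801 against 418 to 689). The same held for NK (104 against 38.7 to 65.9), monocyte and macrophage (6690 against 4030 to 5053) and B cell markers (832 against 183 to 687). Single abundant genes gave much of these sums in that male: Lyz2 5805 CPM, Cd74 4862 CPM, Igha 966 CPM and Ighm 449 CPM. Ighd, the next most abundant B cell marker, was highest in labelled wild type 1, at 73.0 CPM against 61.1 CPM in that male. Neutrophil and erythroid sums were highest in the male labelled knockout. In the male labelled knockout neutrophil markers were 4.89 and erythroid markers 2.40 above the females, and B cell markers 1.56 log2 units below. In that library Mpo and Elane, granule genes of neutrophil precursors, were at 15.5 and 2.53 CPM; both were chosen after their values were seen. In the other 5 libraries Mpo was at most 0.168 CPM and Elane at most 0.0428 CPM. Alveolar type 2, alveolar type 1, endothelial, fibroblast and ciliated cell markers lay between -0.90 and -0.04 in both males. No marker of any list lay under the floor of 3 reads in all 6 libraries. The share of mitochondrial reads was 3.24% in the male labelled wild type and 5.46% in the male labelled knockout, the lowest and the highest of the 6. The part of these cell types, of sex and of RNA quality in the levels of the cell cycle genes was not tested.

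**Figure D5:**
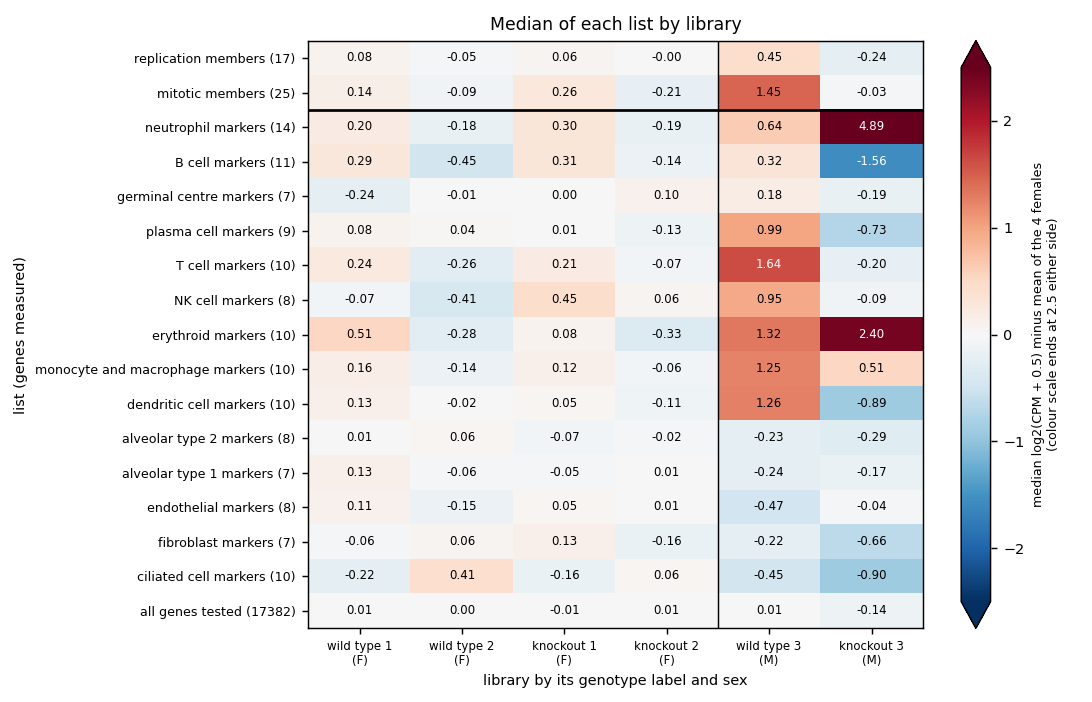
Median over each list (rows, with genes measured) of log2(CPM + 0.5) minus the mean of the 4 females, by library (columns; F female, M male), with the value printed in each cell and colours that end at 2.5 either side. Mitotic members (1.45) are raised in the male labelled wild type. So are markers of T cells (1.64), erythroid cells (1.32), dendritic cells (1.26), monocytes and macrophages (1.25), plasma cells (0.99) and NK cells (0.95). Neutrophil and erythroid markers are raised most in the male labelled knockout (4.89 and 2.40).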

How the data were processed

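The authors deposited 1 table of CPM values (reads assigned to genes, scaled to a common total) for 6 lung libraries, with 0.0001 added to every value and each column summing to 1000002. Per the submitters' processing notes the build was mm10 and the tools TopHat2 and Partek; for annotation, filters and use of strand the entry is: not given in the sources used here. Between 73.9% and 83.5% of values worth up to 100 reads were whole multiples of 1 read within 0.05, so reads were not recovered for a count model and limma was used; numbers of reads given for single members are CPM times the estimated depth, rounded. The fit took log2(CPM + 0.5), genotype label and sex (a second fit added their interaction), a variance trend and 17382 genes with a mean of at least 0.5 CPM. Tests were two-sided with Benjamini-Hochberg adjustment and a threshold of 0.05. Fold changes on this scale understate those of low genes. Positions and exon lengths come from GENCODE M21, where 21846 identifiers (99.8%) were found; exons of 14 members overlap another annotated gene. Promoters come from RefSeq (GRCm38.p6).

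The members and all lists were chosen with earlier results of these data known. Members are all accounted for. From each other cell cycle list up to 4 genes past a test, or else the 2 of smallest genotype p, were named. From each of 14 marker lists at most the 2 most abundant were named. Mpo and Elane are the exception: they were added outside this rule, after their values were seen. Of 262 list genes 259 were found. Not every gene so picked is printed. Alternatives were pseudocounts of 0.1 and 1 CPM, no filter, quantile normalization, median centring, no sex term, the 4 females alone and leaving out each library. The fit was also tried on simulated data, with the same spread set for every gene and changes set only in the more abundant genes. That trial does not speak to the rarer members, and no result here rests on it. The fits used limma 3.58.1 in R 4.3.3, with tables made in pandas 2.3.3 under Python 3.11.15 and plots in matplotlib 3.10.9.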

Additional observations from a re-analysis of the deposited data

Results flagged for a closer look

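limma's interaction term set the genotype difference in males apart from that in females for Pcna (-1.14) among the members and for Uhrf1 (-2.68), Btg1 (-0.93) and Tfdp2 (1.06) among other cell cycle genes. It did so as well for S100a8 (4.96), S100a9 (3.98), Chil3 (1.97), Igha (-6.81), Cd4 (-3.48), Cd74 (-2.94) and H2-Ab1 (-3.32) among the markers of other cell types. Each value is on the log2 scale and rests on 1 male per label. Over all 17382 genes tested the interaction called 319 lower and 122 higher, so such calls are not particular to these genes. S100a8, a neutrophil calprotectin subunit, reached 1467 CPM in the male with the label knockout and 20.5 to 54.2 CPM elsewhere, and Igha reached 966 CPM in the male labelled wild type and 26.0 to 169 CPM elsewhere. Chil3, a chitinase-like protein of macrophages, differed in another way: it was at 58.4 and 64.5 CPM in the females labelled knockout and between 224 and 279 CPM in the other 4 libraries.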

How the results depend on the processing

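The call that no member differed by genotype label held under all 13 alternatives. Over all genes the genotype count was 2, and 6 with no filter, under quantile normalization or under median centring, 7 in the 4 females and 1 to 4 without 1 library. For sex the count over all genes was 145, and 21 (without labelled knockout 2) to 840 (without the male labelled wild type) without 1 library, with 724 without the male labelled knockout; 2 members passed after median centring and 0 to 5 without 1 library, the 5 without the male labelled knockout. For the interaction it was 441, 0 with no filter and 230 (without labelled knockout 1) to 577 without 1 library; the single member called, Pcna, was lost (0 called) with a pseudocount of 0.1 CPM, no filter, quantile normalization or median centring, and 0 to 1 members passed without 1 library (Pcna, Tk1 or Top2a). The cause was not tested.

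The genotype difference of these members, none of which passed, changed sign in the 4 females: Mcm2 (0.102), Mcm5 (0.213), Cdc45 (0.0764), Pcna (0.135), Rrm1 (0.107), Tyms (0.00128), Tk1 (0.66), Mki67 (0.257), Ccna2 (0.157), Ccnb1 (0.202), Ccnb2 (0.207), Cdk1 (0.0566), Cdca8 (0.333), Plk1 (0.377), Cenpf (0.216), Kif20a (0.0704), Kif23 (0.436) and Nusap1 (0.292). It changed sign after median centring for Cdc45 (0.0223), Rrm1 (0.0623), Cdca8 (0.0706) and Nusap1 (0.00626), under quantile normalization for Cdc45 (0.0416), Rrm1 (0.0164), Tk1 (0.00126), Cdca8 (0.0955), Kif23 (0.00725) and Nusap1 (0.0169), and with a pseudocount of 0.1 CPM for Cdca8 (0.0136). Leaving out 1 library at a time moved the log2 difference over these ranges: Nusap1 -0.428 to 0.292, Mcm3 -0.171 to 0.299, Mcm2 -0.318 to 0.102, Mcm5 -0.503 to 0.213, Cdc45 -0.15 to 0.0764, Pcna -0.408 to 0.135, Rrm1 -0.18 to 0.107, Tyms -0.405 to 0.00128, Tk1 -0.548 to 0.66, Mki67 -0.441 to 0.257, Ccna2 -0.597 to 0.157, Ccnb1 -0.657 to 0.202, Ccnb2 -0.474 to 0.207, Cdk1 -0.919 to 0.0566, Cdca8 -0.201 to 0.333, Plk1 -0.581 to 0.377, Cenpf -0.988 to 0.216, Kif20a -0.655 to 0.0704, Kif23 -0.389 to 0.436. With 1 male per label, leaving out either male makes the genotype term that of the females. Ttk was under the filter in the females and without the male labelled wild type. No paired analysis was possible because the labels give no replicate numbers: the numbers 1 to 3 used here follow the order of the samples and pair no libraries. Each library's depth limits members below 1 CPM, such as Ttk with 5 to 27 reads.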
